A study of Mus musculus with 3 samples.

Results

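The 51 genes described here encode proteins that carry a cell through mitosis and cytokinesis. They were chosen by gene symbol, and each was taken at its locus in the merged transcript annotation of the series. All 51 were found among 48626 loci, of which 20117 were mRNA loci. Of the mRNA loci, 12569 reached 1 FPKM in some library and serve as background here. FPKM is a fragment count divided by exon length and by sequencing depth. None of the 51 loci was joined with another protein-coding gene. By role, 8 genes act in mitotic entry, 6 in chromosome structure, 11 at the kinetochore or in the spindle checkpoint, 4 in anaphase onset and exit, 9 in the spindle, 4 in the chromosomal passenger complex and 9 in cytokinesis.

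The study sequenced total RNA from heart ventricles of C57BL/6 mice to find long non-coding RNAs of heart development. The 3 groups were ventricle of embryos on embryonic days E10.5 and E13.5 and of adults at 8 weeks, with no mutant allele or treatment in the labels. Each stage had 1 library, so the values have no spread between replicates and no test of a difference between stages was possible. The number of animals behind a library was not given in the sources used here. In such bulk samples, fewer dividing cells and less RNA per dividing cell cannot be told apart.

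In mitosis, cyclin-dependent kinase 1 with its A and B cyclins drives the cell into division, condensin compacts the chromosomes, and kinesins and microtubule-binding proteins build the spindle. The kinetochore couples each chromosome to the spindle, and the checkpoint holds back the anaphase-promoting complex until all chromosomes are attached. Cytokinesis then separates the daughter cells with a contractile ring placed by the central spindle. Heart muscle cells divide in the embryo, and in mice most of them stop dividing soon after birth. Many genes of this group are switched on late in the cell cycle through a short promoter element, the cell cycle genes homology region (CHR), which the DREAM and MuvB complexes bind, often close to CCAAT boxes bound by NF-Y.

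The CHR element is shown because genes of different roles hold it, although the list was made from symbols and not from sequence. RefSeq promoters (GRCm38.p6, 250 bases before to 50 bases after the annotated start) were matched for 44 of the 51 genes, and those of Aurkb, Ccna2, Incenp, Kif20a, Smc4, Spc24 and Tpx2 were not. The windows below hold 30 bases each, from genes of 6 of the 7 roles, on the strand of the gene. Capitals mark the element, which reads TTTGAA on the strand of the gene and TTCAAA where the match lies on the other strand. Kif11 was taken for the spindle after its sequence was seen, since the spindle genes named by rule had no such window.
Cdk1, chr10:69352910-69352939, minus strand: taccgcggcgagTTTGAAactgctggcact
Top2a, chr11:99024195-99024224, minus strand: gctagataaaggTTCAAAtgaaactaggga
Cenpa, chr5:30666890-30666919, plus strand: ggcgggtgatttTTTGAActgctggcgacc
Spc25, chr2:69206172-69206201, minus strand: ggcggtggagagTTTGAAattgaaagactg
Ube2c, chr2:164769888-164769917, plus strand: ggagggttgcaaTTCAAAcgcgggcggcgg
Kif11, chr19:37376351-37376380, plus strand: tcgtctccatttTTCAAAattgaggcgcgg
Racgap1, chr15:99651634-99651663, minus strand: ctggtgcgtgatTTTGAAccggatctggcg
Prc1, chr7:80294434-80294463, plus strand: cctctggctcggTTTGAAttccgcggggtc

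A gene is counted when any of its promoters holds the motif. TTTGAA, searched on both strands, was present at 32 of the 44 genes (72.7%). It was present at 13.9% of the 9309 genes of expressed mRNA loci and 20.2% of all 27025 genes with a promoter of the same length. In the 100 bases around the start it was present at 29 of the 44 (65.9%), against 3.73% of the genes of expressed mRNA loci. The variant TTCGAA was found in 3 of the 44 (6.82% against 2.51%) and the variant TTTAAA in 10 of the 44 (22.7% against 11.2%). With any of the 3 forms the count was 36 of 44 (81.8% against 24.2%). The variants read the same on both strands, and matches of different forms may overlap. CCAAT was present at 32 of the 44 genes (72.7% against 43% of those of expressed mRNA loci). In the 25 bases that follow the start, 31.8% of the 44 genes held TTTGAA, against 0.999% of the genes of expressed mRNA loci. This bin held the highest share of the 44 genes. None of these 4 motifs was found in the promoters of Cit, Kif18a, Mad2l1, Melk, Ncaph, Nuf2 and Pttg1. A match is a description of letters and not a measured binding site.

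**Figure D1:**
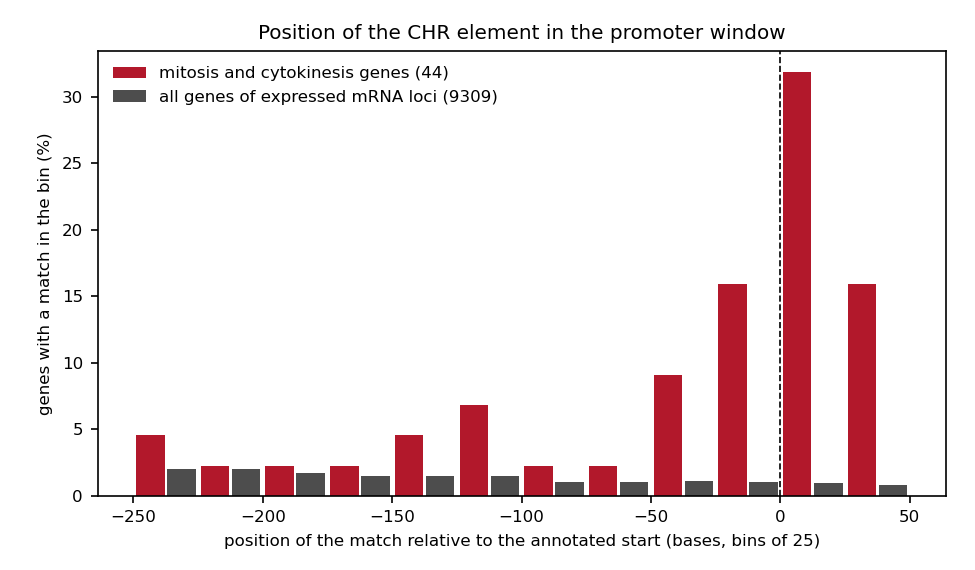
Position of TTTGAA, on either strand, in the 300-base promoter windows of the 44 genes with a promoter (red) and of the 9309 genes of expressed mRNA loci (grey). The x axis gives bases from the annotated start in bins of 25 and the y axis the percent of genes with a match in the bin. The red share peaks at 31.8% of the 44 genes just after the start, where the grey share is 0.999%.

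Transcripts of all 51 genes were present in both embryonic libraries and most were near the floor in the adult. The median level of the 51 genes was 29.2 FPKM at E10.5, 31.3 FPKM at E13.5 and 0.448 FPKM in the adult. All 51 lay at 1 FPKM or more in each embryonic library, against 10 in the adult, and none was listed at 0. Of 106 other genes of the same processes, 70 lay at 1 FPKM or more in the adult. The matching share of all mRNA loci is not given here. The approximate depth, read off the smallest steps between FPKM values, put a median of 1143 fragments behind the genes in the E10.5 library, 2468 in the E13.5 library and 21 in the adult library. In the adult, 15 genes rested on fewer than 10 fragments, so the order of the lowest genes is not resolved there.

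**Figure D2:**
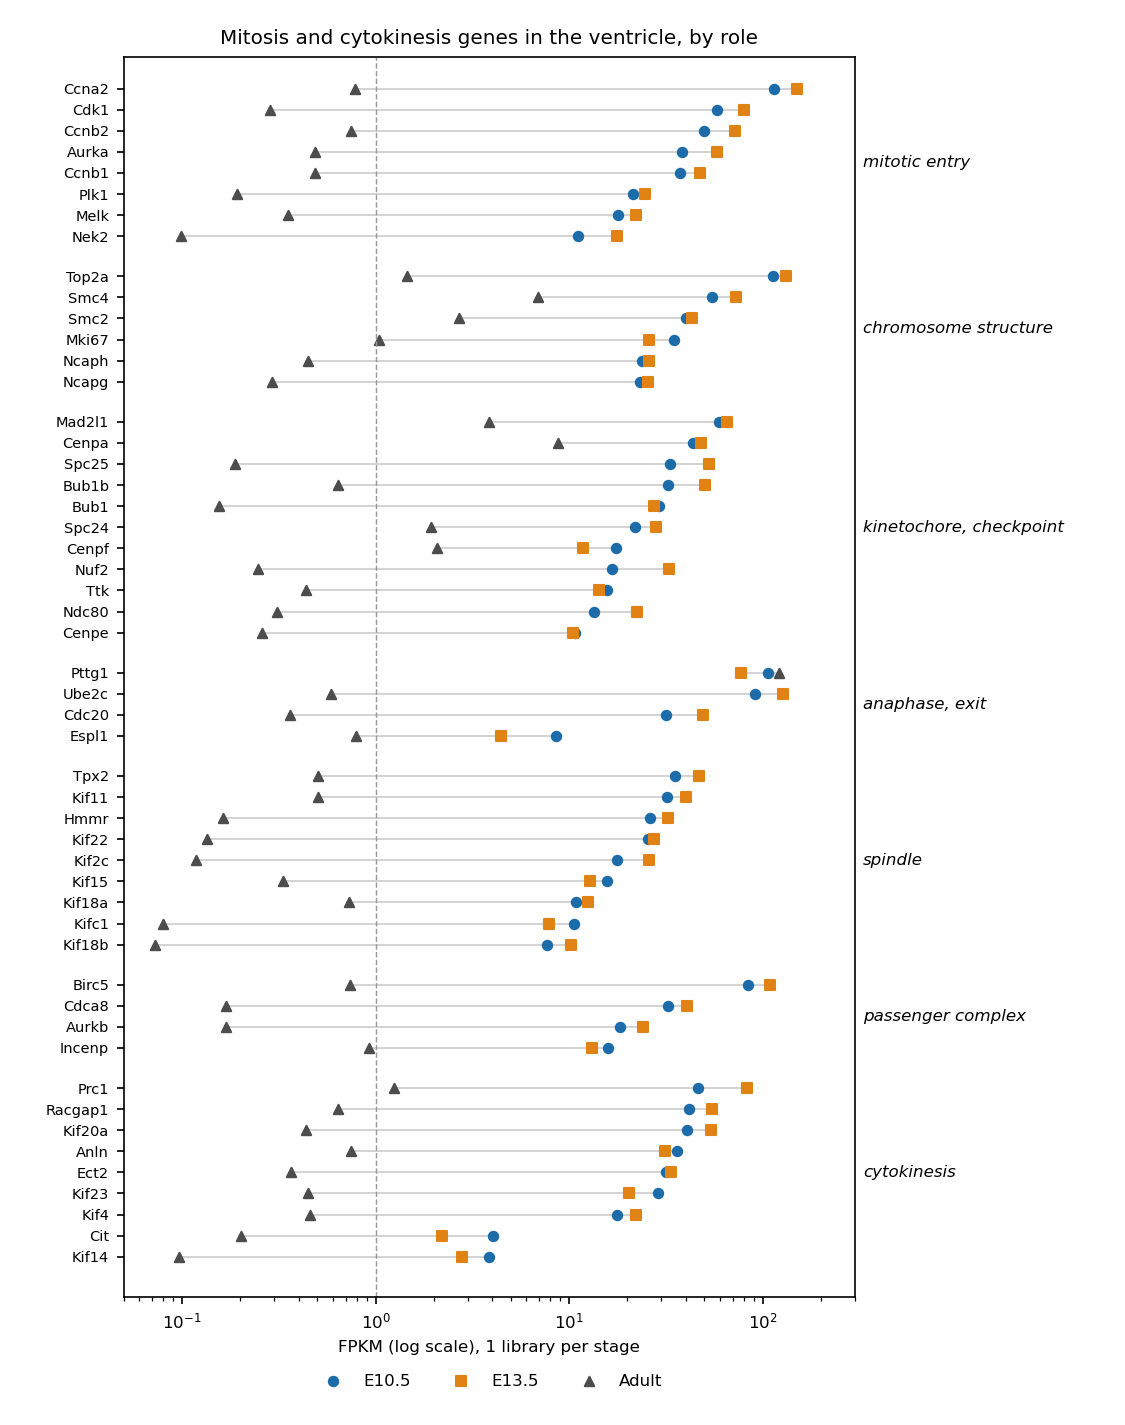
FPKM of the 51 genes (log x axis) by role, with 1 library per stage, where circles are E10.5, squares E13.5 and triangles the adult, and the dashed line is 1 FPKM. The embryonic values lie close together between 2.20 and 151 FPKM, and 41 of the 51 adult values lie under 1 FPKM, with Pttg1 as the gene whose adult value is its highest.

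A change is the difference of log2(FPKM + 1) between libraries, which understates the change of low genes, and a gene is counted as lower or higher past 2 on that scale. From E10.5 to the adult, 50 of the 51 genes were lower and all 50 were lower by 2 or more, where 64.7% of the 12569 mRNA loci were lower and 8.10% lower by 2 or more. Their median change was -4.14, against -0.40 over the mRNA loci, so the shift of all loci is small beside it. From E13.5 to the adult, 50 were lower (66.9% of mRNA loci) and 47 were lower by 2 or more (9.88% of mRNA loci), and the median change was -4.37 against -0.50. The remaining gene, Pttg1, was higher, as were 33.0% of mRNA loci. None of the 51 was higher by 2 or more in the adult, where 5.59% of mRNA loci were from E10.5 and 4.41% from E13.5. The 4 genes not lower by 2 or more from E13.5 were Espl1, Cit, Kif14 and Pttg1. Kif14 is a kinesin that works with citron kinase, was named after its values were seen, and stood at 3.84, 2.81 and 0.0961 FPKM. From E10.5 to E13.5, none of the 51 changed by 1 or more in either direction, where 4.85% of mRNA loci were lower and 5.89% higher by that much, and 0.247% lower and 0.851% higher by 2 or more. The E10.5 library is shared by 2 of these comparisons, as are the E13.5 and adult libraries.

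Libraries can also be rescaled by median-of-ratios factors over mRNA loci (factor 1.06 in the E10.5, 1.18 in the E13.5 and 0.797 in the adult library). Then 48 genes were lower by 2 or more from E10.5 to the adult (6.10% of mRNA loci) and 45 from E13.5 (6.17% of mRNA loci). From E10.5, Cenpa (-1.81) and Cit (-1.94) dropped under the limit with Pttg1, whose change was 0.59. A set of 14 housekeeping genes changed by a median of -0.97 between the E10.5 and adult libraries under the deposited scaling.

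The genes of mitotic entry had a median change into the adult of -4.71 from E10.5 and -5.16 from E13.5, the lowest of the roles with a pseudocount of 1. With a pseudocount of 0.1 the passenger genes were lowest instead, at -6.37 and -6.76 against -6.01 and -6.44 for entry. Ccna2, cyclin A2 of S phase and early mitosis (chr3:36564865-36571996), had the highest level of all 51 genes in both embryonic libraries. It stood at 114 FPKM at E10.5, 151 FPKM at E13.5 and 0.787 FPKM in the adult. Its change from the E10.5 to the adult library was -6.01, which left 0.688% of the level. Cdk1, the kinase that triggers mitosis (chr10:69336635-69352912), stood at 57.9 FPKM at E10.5, 80.5 FPKM at E13.5 and 0.284 FPKM in the adult. Of its E10.5 level 0.490% was left, the lowest share among the 51 genes, on about 11 adult fragments. Ccnb1, cyclin B1 and the partner of this kinase (chr13:100778739-100786486), stood at 37.4, 47.2 and 0.489 FPKM in the same order. Nek2, a kinase that helps to part the centrosomes, was the entry gene with the smallest difference on the log2 scale (-3.46), at 11.1, 17.7 and 0.0987 FPKM. As a share, 0.892% of the E10.5 level of Nek2 was left, so its smaller log2 difference goes with its low starting level. Of Ccnb1, 5 other genome segments of at least 200 bases are copies at 95% identity or more, so its fragments could have been split among them. All 8 entry genes were higher at E13.5 than at E10.5, by 0.21 to 0.63. The matched transcript of each is shorter than 5000 nt, and 72.2% of mRNA loci under that length were higher. For each entry gene, under 2% of the E10.5 level was left in the adult.

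The 6 genes of chromosome structure kept more in the adult, with a median of 2.43% of the E10.5 level. Top2a, the topoisomerase that untangles sister DNA (chr11:98992840-99024213), stood at 113 FPKM at E10.5, 131 FPKM at E13.5 and 1.46 FPKM in the adult. Mki67, the source of the Ki-67 antigen that coats mitotic chromosomes (chr7:135689783-135716379), stood at 34.9, 25.9 and 1.04 FPKM. Both are in wide use as markers of dividing cells, and Mki67 was lower at E13.5 than at E10.5 while Top2a was higher.

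The 4 condensin genes of the list did not sit at one level. Ncapg and Ncaph encode subunits found in condensin I alone, while Smc2 and Smc4 form the core that condensin I and II share. Smc4 (chr3:69004972-69034623) stood at 54.5 FPKM at E10.5, 73.1 FPKM at E13.5 and 6.88 FPKM in the adult, on about 387 adult fragments. Smc2 (chr4:52438979-52488259) stood at 40.0, 43.0 and 2.69 FPKM. Thus 12.6% of the E10.5 level of Smc4 and 6.71% of that of Smc2 remained in the adult. Ncapg stood at 23.3, 25.6 and 0.290 FPKM, and 1.25% of its E10.5 level remained. Ncaph stood at 23.7, 25.7 and 0.448 FPKM, and 1.89% of its E10.5 level remained. The shared core genes were the higher pair in each of the 3 libraries, by a wider ratio in the adult than in the embryo.

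The kinetochore and checkpoint genes spanned the widest range of adult levels apart from the anaphase genes, 0.156 to 8.80 FPKM. Cenpa, the histone H3 variant that marks centromeres (chr5:30666902-30681703), stood at 43.6 FPKM at E10.5, 48.2 FPKM at E13.5 and 8.80 FPKM in the adult. It kept 20.2% of its E10.5 level, the second highest share. Its locus also holds an assembled transcript of 7600 nt that runs past the matched transcript of 1337 nt, and the locus value does not tell the 2 apart. Mad2l1, the checkpoint protein Mad2 (chr6:66535329-66540991), had the highest mean level of this role, at 59.4, 65.8 and 3.87 FPKM. Cenpf, a large kinetochore protein that also sits at the nuclear envelope (chr1:189640573-189688086), stood at 17.4, 11.8 and 2.09 FPKM. It was among the 3 genes with the lowest change from E10.5 to E13.5 (-0.53).

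The Ndc80 complex, a rod of 4 proteins that grips spindle microtubules, had uneven levels among its genes. Ndc80 stood at 13.4 FPKM at E10.5, 22.4 FPKM at E13.5 and 0.309 FPKM in the adult. Nuf2, its partner at the microtubule end of the rod (chr1:169497934-169531464), stood at 16.6, 32.9 and 0.247 FPKM. Spc25, at the centromere end (chr2:69193895-69206190), stood at 33.2, 53.0 and 0.188 FPKM. Spc24, the partner of Spc25 (chr9:21755442-21760286), stood at 21.9, 28.1 and 1.94 FPKM. All 4 were higher at E13.5, as were 62.9% of mRNA loci and 72.2% of those shorter than 5000 nt. Nuf2 (0.95) and Ndc80 (0.70) were among the 3 highest changes from E10.5 to E13.5 of the 51 genes. In the adult Spc24 kept 8.87% of its E10.5 level and Spc25 kept 0.565%, although both proteins belong to the same end of the complex. The adult value of Spc25 rested on about 4 fragments and that of Spc24 on about 36.

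The genes of anaphase onset and exit had the widest spread of changes into the adult. Ube2c, the ubiquitin-conjugating enzyme of the anaphase-promoting complex (chr2:164769929-164772902), stood at 91.3 FPKM at E10.5, 127 FPKM at E13.5 and 0.591 FPKM in the adult. Between the E10.5 and adult libraries its change was -5.86, and 0.647% of the level was left. Espl1, separase, the protease that cleaves cohesin (chr15:102296293-102324356), stood at 8.53, 4.46 and 0.796 FPKM. Its change from E10.5 to E13.5 (-0.80) was the lowest of the 51 genes, and it kept 9.34% in the adult.

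Pttg1, securin, which binds and restrains separase (chr11:43420248-43426248, minus strand), was the exception among the 51 genes. It stood at 107 FPKM at E10.5, 76.9 FPKM at E13.5 and 121 FPKM in the adult, on about 2818 adult fragments. It was lower at E13.5 (-0.47) and its adult level was 113% of that at E10.5, a change of 0.18 that 30.0% of the mRNA loci reached or passed. With median-of-ratios scaling the changes were -0.62 into E13.5, 1.21 from there to the adult and 0.59 over both steps. In the adult library Pttg1 made up 72.4% of the summed FPKM of the 51 genes, against 6.09% at E10.5 and 3.62% at E13.5. The other 50 genes summed to 1645 FPKM at E10.5, 2050 FPKM at E13.5 and 46.2 FPKM in the adult, which was 2.81% of their E10.5 sum. No other locus overlapped Pttg1 on either strand, and Slu7, a splicing factor gene that comes next at the higher coordinate, 7483 bp away, stood at 11.9, 18.1 and 12.7 FPKM. No second genome segment of 200 bases matched its transcript at 95% identity or more.

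**Figure D3:**
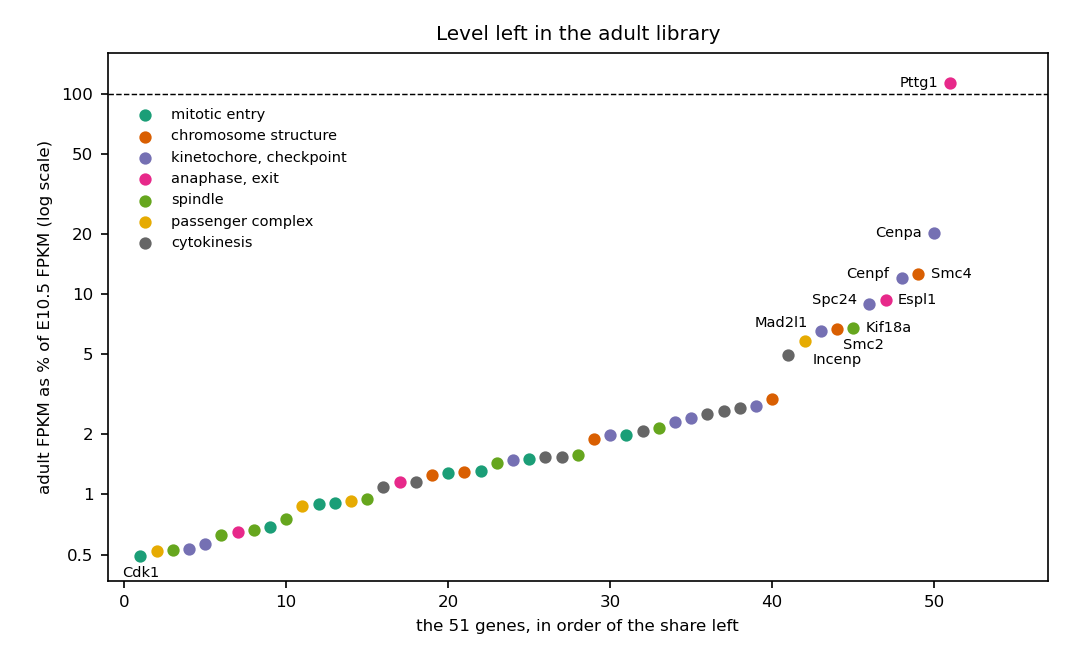
Adult FPKM as percent of the E10.5 FPKM (log y axis) for the 51 genes in order of that share, coloured by role, with 1 library per stage and a dashed line at 100%. The shares run from 0.490% for Cdk1 to 20.2% for Cenpa, with Pttg1 alone above the line at 113%.

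Of the 51 genes, 15 kept under 1% of the E10.5 level in the adult, 31 under 2%, 41 under 5% and 47 under 10%. The matching shares of all mRNA loci are not given here. The median share was 1.54%, or 2.05% with median-of-ratios scaling. The 10 genes at 1 FPKM or more in the adult were Pttg1, Cenpa, Smc4, Mad2l1, Smc2, Cenpf, Spc24, Top2a, Prc1 and Mki67. Of these, Smc2, Mad2l1 and Prc1 have a copy of at least 200 bases at 95% identity elsewhere in the genome, as have 10 of the 51 genes in all. How the fragments that map to several places were handled was not given in the sources used here.

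The spindle genes were the lowest in the adult, with a median of 0.163 FPKM and a highest value of 0.730 FPKM. Tpx2, which helps microtubules to form around chromosomes and activates Aurora A (chr2:152847964-152895456), had the highest level of this role. It stood at 35.3 FPKM at E10.5, 47.2 FPKM at E13.5 and 0.503 FPKM in the adult. Kif18a, a kinesin that shortens the microtubules at kinetochores (chr2:109280738-109341746), had the smallest difference, at 10.8, 12.5 and 0.730 FPKM. Across the 11 genes named Kif, which include motors of the spindle and of the midzone, levels ran from 3.84 to 40.5 FPKM at E10.5, from 2.81 to 54.3 FPKM at E13.5 and from 0.0727 to 0.730 FPKM in the adult. The lowest adult value of these kinesins rested on about 3 fragments. The matching ranges over all mRNA loci are not given here. Of the 11, 7 were higher and 4 lower at E13.5 than at E10.5, near the background, in which 62.9% of mRNA loci were higher.

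The 4 genes of the chromosomal passenger complex, which corrects faulty attachments and later moves to the midzone, differed in their residue. Birc5, survivin (chr11:117849237-117855743), stood at 84.1 FPKM at E10.5, 109 FPKM at E13.5 and 0.738 FPKM in the adult. Aurkb, the kinase of the complex (chr11:69045643-69051662), stood at 18.3, 24.2 and 0.168 FPKM. Cdca8, borealin (chr4:124918465-124936917), stood at 32.6, 40.7 and 0.170 FPKM. Each of these 3 was higher at E13.5, as were 62.9% of mRNA loci, and kept under 1% of its E10.5 level in the adult. Incenp, the scaffold that joins the kinase to the others (chr19:9872297-9899533), stood at 15.8, 13.2 and 0.922 FPKM. It was lower at E13.5 (-0.25) and kept 5.82%, on about 41 adult fragments.

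Of the 9 cytokinesis genes, 5 were higher and 4 lower at E13.5, where 62.9% of mRNA loci were higher and 37.0% lower, and their median turned from 0.08 to -0.08 with median-of-ratios scaling. Prc1, which bundles the microtubules of the midzone (chr7:80294375-80316259), was the highest of them, at 46.2 FPKM at E10.5, 82.6 FPKM at E13.5 and 1.24 FPKM in the adult. Its change of 0.83 into E13.5 was the second highest of the 51 genes. Kif20a, a kinesin that carries the passenger complex to the midzone, stood at 40.5, 54.3 and 0.439 FPKM, and its adult level was lower than that at E10.5 by the largest difference of this role (-4.85). Anln, anillin, the scaffold of the contractile ring (chr9:22331214-22389206), stood at 36.2, 31.3 and 0.748 FPKM. The embryonic levels of these 3 genes of the midzone and ring lay within the range of the entry genes. Those of the cytokinesis genes Kif14 and Cit lay below it, under the lowest entry values of 11.1 FPKM at E10.5 and 17.7 FPKM at E13.5.

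Centralspindlin, the complex of Kif23 and Racgap1 that places the ring, showed opposite signs for its 2 genes in the embryo. Kif23 (chr9:61917097-61946799) stood at 28.9 FPKM at E10.5, 20.5 FPKM at E13.5 and 0.445 FPKM in the adult. Racgap1 (chr15:99620496-99651656) stood at 41.5, 54.7 and 0.639 FPKM. The change into E13.5 was -0.48 for Kif23 and 0.39 for Racgap1, and each kept 1.54% of its E10.5 level in the adult. Cit, citron kinase, which acts in abscission (chr5:115845656-116008840), was low throughout at 4.05, 2.20 and 0.201 FPKM. Its change of -0.66 into E13.5 was the second lowest of the 51 genes.

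Set side by side, the roles overlapped. From E10.5 to the adult the changes ran from -6.01 to -3.46 in mitotic entry, from -4.59 to -2.77 in the spindle and from -4.85 to -2.07 in cytokinesis. The medians of these 3 roles were -4.71, -4.06 and -4.40, and the medians of the share left were 1.09%, 0.946% and 2.07%. The log2 difference ordered entry lowest and spindle highest among the 3, while the share left placed the spindle genes lowest. The spindle genes had a lower median level at E10.5, 17.6 FPKM against 37.9 FPKM for entry, and differences of log2(FPKM + 1) are smaller for low genes. With 1 library per stage, no order among the roles can be tested.

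From E10.5 to E13.5, 37 of the 51 genes were higher and 14 (27.5%) lower, with a median change of 0.30. Over the mRNA loci 62.9% were higher and 37.0% lower, with a median of 0.17, and the split of the 51 genes is to be read against that of all loci. With median-of-ratios scaling, 30 of the 51 were higher and 21 lower, with a median of 0.15 (0.04 over mRNA loci), and the medians of the chromosome, kinetochore, anaphase and cytokinesis genes turned below 0. With a scaling by the sum of FPKM without globin, mitochondrial and the highest loci, 27 were higher and 24 lower (median 0.03, against -0.06 over mRNA loci). The median of the 51 genes stayed above 0 under each scaling, but its size and the sign in the roles just named rested on the scaling. The changes went with transcript length. Across the 51 genes the correlation of the change with the log length of the longest matched transcript was -0.50 (Pearson) and -0.46 (Spearman). Across the 12569 mRNA loci it was -0.43 and -0.47, all points coming from the same 2 libraries. Of the 11 genes of 5000 nt or more, 7 were lower at E13.5 (median -0.21), and of the 40 shorter genes, 7 were lower (median 0.36). Among mRNA loci, 65.2% of those of 5000 nt or more were lower, against 27.6% of the shorter ones. What this trend with length comes from was not tested.

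**Figure D4:**
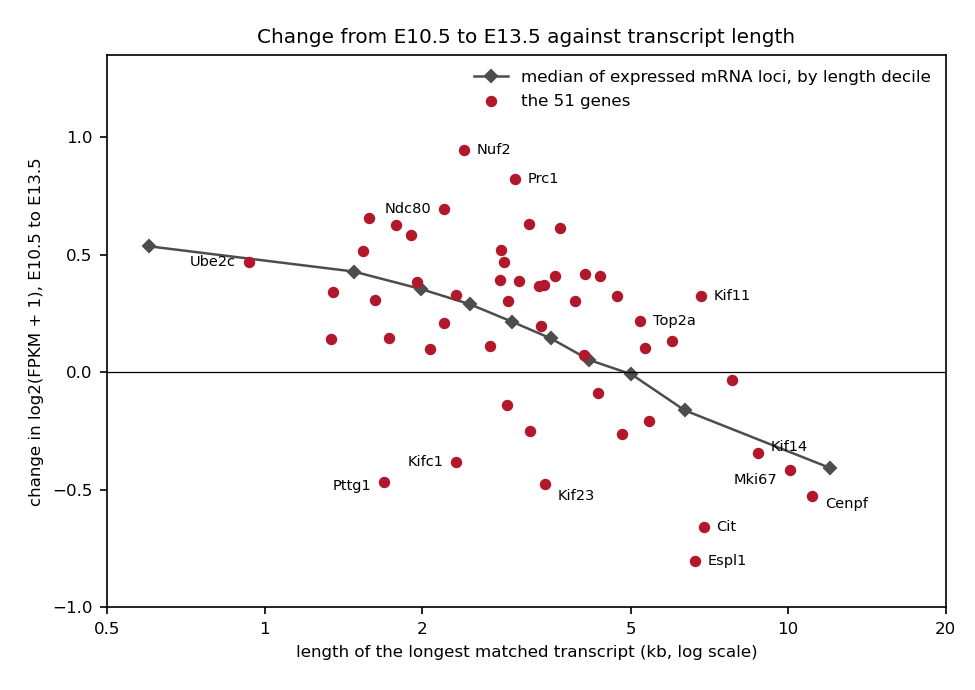
Change in log2(FPKM + 1) from E10.5 to E13.5 (y axis) against the length of the longest matched transcript in kb (log x axis) for the 51 genes (red points), with the median of expressed mRNA loci in each length decile (grey line). The grey line runs from 0.54 in the shortest to -0.41 in the longest decile. The long genes Mki67 and Cenpf lie close to it and the long gene Kif11 above. Nuf2 and Prc1 also lie above and Espl1, Cit, Kif23, Kifc1 and Pttg1 below.

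Setting each gene against the median of mRNA loci in its length decile, a step added after seeing the data, left a median of 0.09, with 31 genes above 0 and 20 below. Mki67 then lay at -0.01 and Cenpf at -0.12, close to the median of mRNA loci in their length decile. Whether their lower level at E13.5 came from transcript length or from a change of these genes was not tested. Nuf2 (0.66) and Prc1 (0.61) stayed high, and Pttg1 (-0.89), Kifc1 (-0.67), Espl1 (-0.64), Kif23 (-0.62) and Cit (-0.50) stayed low. Kifc1, a spindle kinesin, was named after its values were seen. Into the adult the same step gave medians of -3.77 from E13.5 and -3.74 from E10.5, with 50 of the 51 genes below 0 in each.

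Beside the 51 genes, 111 other genes of the same processes were listed by role. Of these 3 had no locus, 2 shared a joined locus with another gene, and 106 were used, with Rock1 listed at 0 at E13.5 and Depdc1a listed at 0 in the adult. From E10.5 to the adult, 103 of the 106 were lower and 49 were lower by 2 or more, with a median of -1.82, and none was higher by 2 or more. The counts of the lists stand against a background of 8.10% of mRNA loci lower by 2 or more, and differences between lists were not tested. Kinetochore genes (16 of 27), spindle genes (16 of 20) and regulators of entry (9 of 15) included many that were lower by 2 or more, with medians of -2.62, -2.84 and -2.65. Of the subunits and partners of the anaphase-promoting complex, 0 of 13 were, with a median of -0.98, and of the other cytokinesis genes 4 of 20 were, with a median of -0.74. Condensin and cohesin genes lay between, with 4 of 11 and a median of -1.20. The 3 genes with the largest differences were Fam83d, Tacc3 and Cep55. Fam83d, which helps chromosomes to line up, stood at 23.0, 28.1 and 0.0717 FPKM. Tacc3, a spindle microtubule protein, stood at 36.8, 53.3 and 0.968 FPKM, and Cep55, of the abscission bridge, at 22.0, 24.3 and 0.201 FPKM. The 3 genes higher in the adult than at E10.5 were Rock2, a kinase of actomyosin contraction (29.7, 23.2 and 47.3 FPKM), Vps4a, an ATPase of membrane scission (18.6, 30.3 and 29.0 FPKM), and Lin52, a MuvB subunit (3.88, 5.12 and 4.79 FPKM).

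DNA replication genes, the program of the preceding S phase, had a median change nearer to 0 than the 51 genes. Of 42 such genes, 37 were lower by 2 or more from E10.5 to the adult, with a median of -2.99, and 37 from E13.5, with a median of -3.05. At E13.5, 29 were higher and 13 lower than at E10.5, with a median of 0.20. In the adult 29 of the 42 lay at 1 FPKM or more, against 10 of the 51 mitosis and cytokinesis genes.

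**Figure D5:**
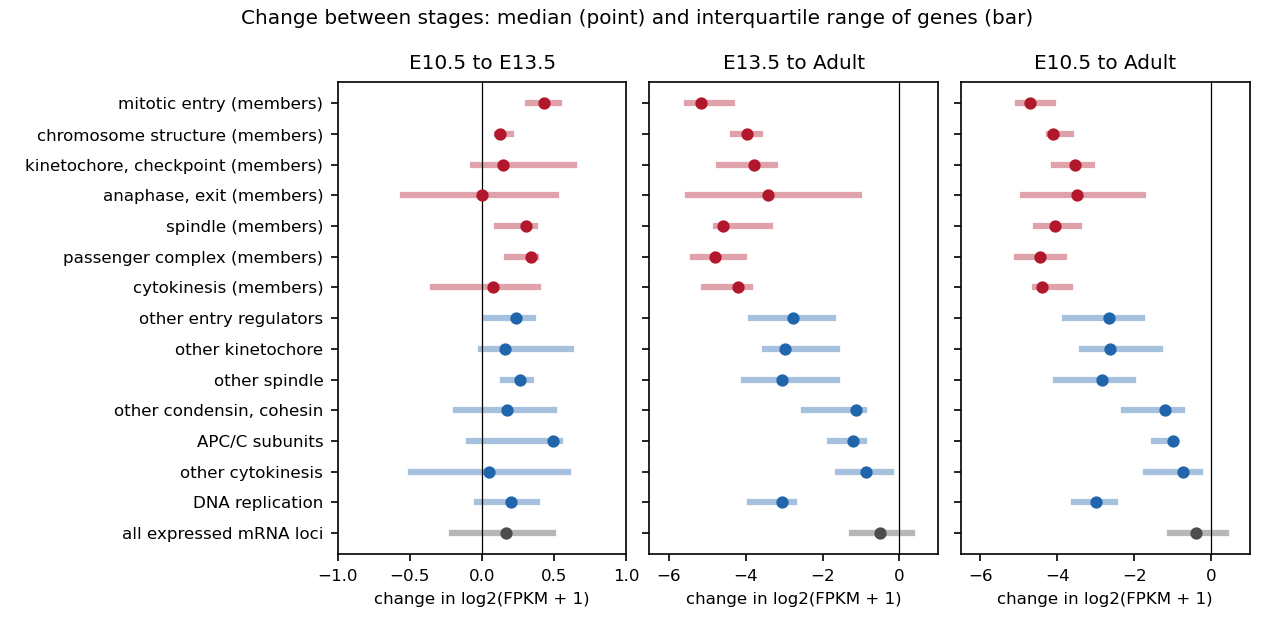
Median change in log2(FPKM + 1) (points) with the interquartile range of the genes (bars) for the 7 roles of the 51 genes (red), 7 lists of related genes (blue) and the 12569 expressed mRNA loci (grey), in 3 panels for the 3 pairs of stages. The x range is narrower in the panel from E10.5 to E13.5. Into the adult, the medians of the 7 roles lie from -5.16 to -3.41, those of the other lists from -3.05 to -0.74 and those of the mRNA loci at -0.50 and -0.40.

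Markers of the cell types in a ventricle moved between the libraries as well, and their part in the results was not tested. The 6 ventricular muscle markers with a locus of their own summed to 14319 FPKM at E10.5, 20894 FPKM at E13.5 and 21018 FPKM in the adult, with none at 0. Myh6 and Myh7, the cardiac myosin heavy chains, shared a joined locus that was listed at 0 in the adult, and Tnni3 was joined with a neighbour, so these 3 stayed out. The sum of 4 genes listed as atrial markers was 6382, 6766 and 40.9 FPKM. Whether these transcripts in the embryonic libraries came from atrial or from ventricular cells was not tested. All 8 markers of red cell precursors, a dividing population in the embryo, were lower in the adult than at E13.5, with sums of 6765, 16353 and 24.8 FPKM. The highest of them gave 15112 FPKM of the E13.5 sum, and 6 of the 8 were lower at E13.5 than at E10.5 (median change -0.41). The 6 macrophage markers were all higher in the adult than in both embryonic libraries (6.58, 52.9 and 164 FPKM). The 6 endothelial markers summed to 290, 214 and 283 FPKM. The 6 fibroblast markers summed to 147, 442 and 432 FPKM, but 5 of them were lower in the adult than at E13.5 (median change -1.29), and Dcn, which was higher, gave 351 FPKM of the adult sum. The 5 epicardial markers summed to 95.35, 96.84 and 18.01 FPKM, and all 5 were lower in the adult than at E13.5. The 5 markers of smooth muscle and pericytes summed to 1195, 1032 and 403 FPKM, yet 3 of them had their adult value above the E10.5 value (median change 0.98). Acta2, at 1090 FPKM at E10.5 and 124 FPKM in the adult, made up most of the embryonic sums.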

How the data were processed

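Total RNA of 3 ventricle samples, 1 per stage, was sequenced in pairs after stranded library preparation. The authors used TopHat2 on mm10 for mapping and Cufflinks for assembly, and deposited FPKM per merged locus and library with the exons of the merged transcripts. Tool versions and options were not given in the sources used here. The smallest steps between FPKM values put the depth near 13.8 (E10.5), 23.5 (E13.5) and 13.8 (adult) fragments per FPKM and kb, an approximation that corrections in Cufflinks may blur.

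The members and lists were chosen with earlier results of these data known. A gene was taken at its locus with the longest exon union among full matches, and loci joining protein-coding genes stayed out of counts. Mean levels and changes of log2(FPKM + 1), shares left and motif counts were computed with Python 3.11.15, numpy 2.4.6 and pandas 2.3.3. The counting of changes was tried on simulated data with median-of-ratios scaling and no gene near the floor. It therefore does not check the counts for low adult values under the deposited scaling. Copies were searched with megablast. Named genes were, per role, the highest mean level and the largest and smallest difference from E10.5 to the adult, the 3 highest and 3 lowest changes into E13.5, genes at 1 FPKM in the adult, members of 4 complexes, 6 common markers, and the 3 extremes of the other pathway genes. Alternatives changed the pseudocount (0.1 for 1), the scaling (median of ratios, or a sum without globin, mitochondrial and the 20 highest loci), the filter, joined loci, the locus rule and the promoter window.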

Additional observations from a re-analysis of the deposited data

How the results depend on the processing

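No paired analysis was possible because the 3 stages hold 1 sample each. Of the values recomputed for the groups of genes, 193 stayed and 34 moved by more than 1.5 times or changed sign. None of the called directions reversed, but the pseudocount cannot turn the sign of a gene's change. The rescaling was also small beside the limit of 2, so these alternatives could hardly have reversed a call. A pseudocount of 0.1 gave medians of -6.04 from E13.5 and -5.73 from E10.5 to the adult. The role medians, in the order entry, chromosome, kinetochore, exit, spindle, passenger and cytokinesis, became -6.44, -5.04, -4.88, -4.54, -6.06, -6.76 and -5.32 from E13.5, and -6.01, -5.19, -4.92, -4.68, -5.87, -6.37 and -5.42 from E10.5, with passenger in place of entry as the lowest. The share of mRNA loci lower by 2 or more became 1.02% into E13.5, 16.2% from E13.5 and 13.49% from E10.5 to the adult. Without the filter these shares were 0.154%, 6.17% and 5.06%. With median-of-ratios scaling they were 0.390% into E13.5 and 6.17% from E13.5 to the adult, and the role medians into E13.5 were -0.028 for chromosome, -0.0083 for kinetochore, -0.15 for exit and -0.076 for cytokinesis. With the sum scaling 24 of the 51 genes were lower at E13.5, the mRNA loci had a median of -0.056 and 0.557% of them were lower by 2 or more. Against the length decile, added after seeing the data, the median from E13.5 to the adult was -3.77. In 100 bases around the start, TTCGAA was found at 1 gene and CCAAT at 21. Of the values of single genes, 354 stayed and 105 moved, 88 of these with the pseudocount of 0.1. Summing all loci with a gene's name would add antisense loci. The planned search for protein motifs was not run, since no protein table was used here. Depth limits the adult values, where 15 of the 51 genes rest on fewer than 10 fragments.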

Other observations

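Unspliced transcripts on the opposite strand were assembled at 7 of the 51 genes, as 8 loci with levels of 0 to 1.55 FPKM. At 5 genes, named after their values were seen, an adult antisense value was above the sense value. The share of all loci with an antisense transcript for which this holds is not given here. These values lie near the floor, since the adult sense values of Kif22, Spc25 and Ndc80 rested on about 4, 4 and 9 fragments. The antisense loci of Kif22, a kinesin that pushes chromosome arms, stood at 0.480 and 1.09 FPKM in the adult, where Kif22 itself stood at 0.134 FPKM, and at 0.158 and 0.1203 FPKM at E10.5. The antisense locus of Ndc80, listed at 0 in either embryonic library, stood at 0.355 FPKM in the adult, beside 0.309 FPKM for the gene. For Spc25 the antisense locus stood at 0.0957 FPKM at E10.5, was listed at 0 at E13.5 and stood at 0.290 FPKM in the adult, beside 0.188 FPKM for the gene. For Kif15 the adult antisense value was 0.688 FPKM beside 0.334 FPKM for the gene, and for Incenp it was 0.966 FPKM beside 0.922 FPKM. The antisense locus of Incenp (chr19:9899496-9900413) overlaps the gene only at its start and lies mostly outside it. At Nek2 and Prc1 the adult antisense value was below that of the gene. The library kit keeps the strand, and the options with which the strand was used in assembly were not given in the sources used here.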
